A study of Ovis aries with 6 samples.

Results

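The loci described here are those that the deposited sheep gene table types as long noncoding RNA (lncRNA) and not as protein_coding, with a mean of at least 10 reads over the 6 libraries. There were 783 such loci of 34119 in the table. RNA of granulosa cells, the somatic cells that line the ovarian follicle and nourish the oocyte, was sequenced from 3 libraries of atretic follicles, which are degenerating, and 3 libraries of healthy follicles. Per the labels the RNA was total RNA from which ribosomal RNA had been removed, and the 3 libraries of a group were independent biological replicates. The sources used here do not give breed, age, follicle size or the number of ewes behind a library, and they name no treatment for either group.

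Long noncoding RNAs are transcripts that have no long reading frame, and many of them are spliced and capped like messenger RNAs. Some act on the chromosome they are made from, as XIST does when it silences an X chromosome, and others serve as scaffolds for nuclear bodies or as hosts for small RNAs that are cut from their introns. Many start beside, or run opposite to, a protein-coding gene, so the neighbouring gene is the usual first landmark for a locus whose function is unknown. Of the well-known lncRNAs that were looked up by symbol, such as XIST, MALAT1 and NEAT1, none was found as a name among these loci, so they are named below by their identifiers and by their neighbours.

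The table holds 2015 loci of lncRNA type at any depth. The mean of 10 reads left out 1232 of them, of which 83 had no read in any library. The 3 loci just under that limit averaged 9.83 reads and the 3 just above it averaged 10 reads. Of the 783 loci, 777 were typed as lncRNA alone and 6 carried a small RNA or another class beside it. An assembled identifier (MSTRG) stood for 460 of them and an Ensembl identifier alone for 323. They lay on 27 chromosomes, 386 on the plus and 397 on the minus strand, with 63 on the X chromosome. In 52 loci at least 1 library had a count of 0, which allows up to 3 reads, or 0.0328 to 0.0343 CPM (counts scaled to a common library size) of that library's total. Such limits cover counting error only. Genome coordinates are given as they stand in the deposited table, and the sources used here do not name its genome build.

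Total counts were between 87455037 and 91597388 per library. The lncRNA loci took 1.37, 1.39 and 1.36% of all counts in the atretic libraries, against 1.45, 1.44 and 1.11% in the healthy ones. The third healthy library, replicate 3, was unlike the rest. Across the lncRNA loci, the median absolute log2 difference between 2 atretic libraries was 0.26 to 0.34. It was 0.28 between healthy replicates 1 and 2, while healthy replicate 3 differed from them by 0.77 and 0.68. In a principal component analysis of the lncRNA loci, the first component held 46.0% of the variance and put the atretic libraries near the middle (-2.96 to 2.08), healthy replicates 1 and 2 at 15.6 and 13.8, and healthy replicate 3 at -25.6. The second component held 22.1% and separated the groups, with the atretic libraries at 6.73 to 11.1 and the healthy ones at -11.3 to -7.59. Which loci were called without healthy replicate 3 is therefore given beside the fit with all libraries. Granulosa markers such as FSHR, the follicle-stimulating hormone receptor, were abundant in all libraries, and their summed level was 9668 to 9938 CPM in the atretic libraries, against 9184, 9117 and 34664 CPM in the healthy ones, the last of these in healthy replicate 3. CYP19A1, the aromatase gene, was not found under that name.

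The type given in the table was first set against the order of genes in RefSeq's sheep assembly ARS-UI_Ramb_v3.0, which was used for names and order alone. For 466 lncRNA loci, both flanking protein_coding genes could be placed there. In 321 of these 466 loci (68.9%), RefSeq lists a protein-coding gene between the flanks that no locus of the table used here is named for. Counted once per interval between a pair of flanking genes, this was so in 287 of 425 intervals that hold a lncRNA locus (67.5%). Among 9526 placed intervals without one it was so in 867 (9.10%). The table may be held here only in part, so a gene counted as absent may have a locus in rows not used here, and the neighbours and distances given are those within the rows used. The share also differed with level. It was 164 of 176 placed loci with a mean of at least 1 FPKM (fragments scaled by locus length and library size), and 157 of 290 placed loci under 1 FPKM. The median level was 1.03 FPKM where such a coding gene lay between the flanks and 0.122 FPKM where none did. The lncRNA type of the more abundant loci is thus a label of the deposited table, and whether their reads come from those coding genes was not tested. This check was added after the values had been seen.

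Per length, the lncRNA loci had lower levels than protein-coding loci. Their median level was 0.263 FPKM, against 2.39 FPKM for the 12952 protein_coding loci with a mean of at least 10 reads. A mean of at least 1 FPKM was reached by 256 lncRNA loci (32.7%), against 73.7% of protein_coding loci, and the highest lncRNA locus averaged 37.7 FPKM. The median mean count was 61.5 reads against 1095 reads, so counting error was larger for the lncRNA loci. A few loci held much of the signal. The 10 with the most reads took 32.7, 31.3 and 31.0% of the lncRNA counts in the atretic libraries, against 25.6, 24.9 and 27.0% in the healthy ones.

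**Figure D1:**
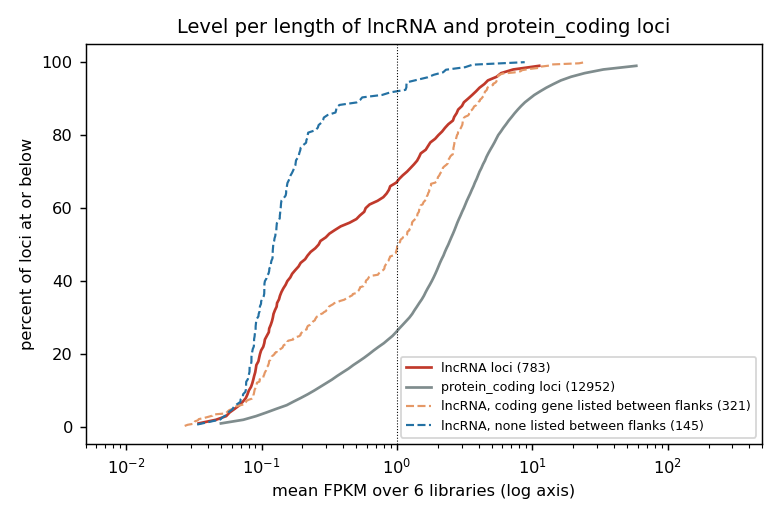
Cumulative share of loci (percent, y axis) at or below a mean FPKM over the 6 libraries (x axis, log scale), for the 783 lncRNA loci and the 12952 protein_coding loci with a mean of at least 10 reads. The lncRNA curve lies to the left, with a median of 0.263 FPKM against 2.39 FPKM, and the dashed curves split placed lncRNA loci into 321 with a coding gene listed between the flanks and 145 with none.

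Atretic and healthy libraries were compared by edgeR's quasi-likelihood test, fitted over 21372 named or annotated loci with Benjamini-Hochberg adjustment over all of them. At an adjusted p under 0.05, no lncRNA locus was called higher and none lower in atretic libraries. In the same test 2 of all 21372 loci were called (0.00936%). The smallest edgeR adjusted p of a lncRNA locus was 0.0965. An unadjusted p under 0.05 was reached by 59 lncRNA loci (7.54%), while 10.8% of all loci tested reached it. Of the 59, 25 had higher values in atretic libraries (5.32% of all loci) and 34 lower values (5.47% of all loci). DESeq2, the other tool run, called 11 lncRNA loci higher and 11 lower. It called 3.56% of the 18757 loci for which it gave an adjusted p, 2.07% higher and 1.49% lower. Without healthy replicate 3, edgeR called 20 lncRNA loci higher and 44 lower in atretic libraries, 8.17% of the 783. The share of all loci called in that fit was 11.8%, with 6.5% higher and 5.35% lower, so the share among the 783 lncRNA loci was below that of all loci. Among the 436 lncRNA loci with a mean of at least 50 reads it was 14.0%, with no share of all loci at that depth set beside it. The part of depth in these shares was not tested. Of the 64 loci called without healthy replicate 3, 19 were also called by DESeq2 with all 6 libraries.

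The spread of the differences was centred near 0. The median log2 fold change (atretic minus healthy) of the lncRNA loci was -0.01, with an interquartile range of -0.33 to 0.28, against -0.07 for protein_coding loci and -0.03 for all loci tested. Without healthy replicate 3 these medians were 0.09, -0.09 and 0.00. All 3 atretic libraries lay above all 3 healthy ones in 58 lncRNA loci (7.41%), where 10.1% of all loci did. They lay below in 61 lncRNA loci (7.79%), where 9.21% of all loci did. Healthy replicate 3 had the highest of the 6 values in 260 lncRNA loci (33.2%) and the lowest in 183 (23.4%). For protein_coding loci this was the other way round, with 24.8% highest and 37.1% lowest in that library.

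**Figure D2:**
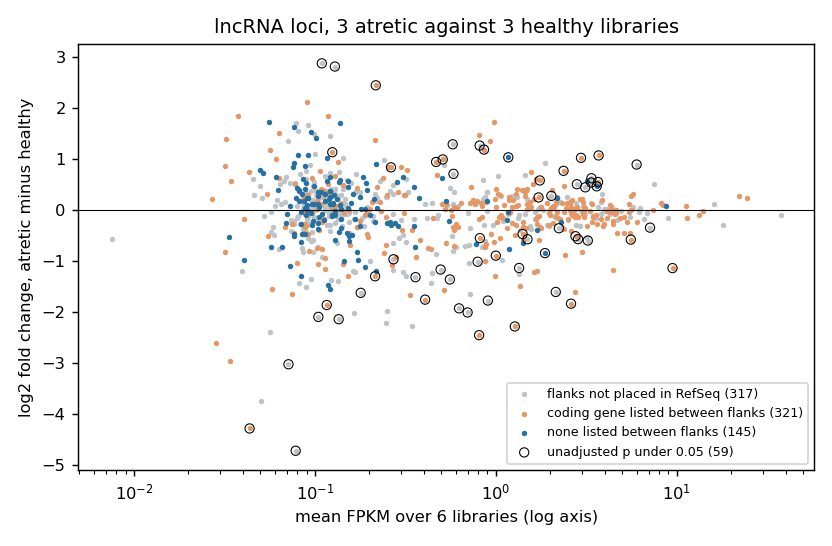
Log2 fold change, atretic minus healthy (y axis), against mean FPKM over the 6 libraries (x axis, log scale) for the 783 lncRNA loci, coloured by whether RefSeq lists a coding gene between the flanks, with rings around the 59 loci with an unadjusted p under 0.05. The points spread around a median of -0.01, and no locus passed an edgeR adjusted p of 0.05 with all 6 libraries.

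The smallest p among the lncRNA loci belonged to MSTRG.17216 (ENSOARG00020021582) on chromosome 21, 50602388 to 50982158, minus strand. It had 424.6, 392.4 and 372.1 CPM in the atretic libraries, against 186, 181 and 198 CPM in the healthy ones. The groups did not overlap, and the spread within each group was small beside the gap between them. The level was 2.104-fold higher in atretic libraries (log2 difference 1.07, SE 0.117, 95% interval 0.79 to 1.35, edgeR adjusted p = 0.0965). The locus rests on 29568 to 32406 reads in each atretic library and 13770 to 16747 in each healthy one. It was called without healthy replicate 3 (edgeR adjusted p = 0.000243) and by DESeq2, while the other alternatives left it uncalled, with adjusted p-values up to 0.686.

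On its left, 30624 bases away, lies CDKN1C, which encodes the cyclin-dependent kinase inhibitor p57 and is maternally expressed in human and mouse. On its right, 30384 bases away, lies TRPM5, a calcium-activated cation channel. Both run on the plus strand, opposite to the locus. RefSeq lists 1 coding gene between them, KCNQ1, a potassium channel gene, which no locus of the table used here is named for. In human, KCNQ1 contains an antisense imprinted lncRNA, KCNQ1OT1. RefSeq was used for names and order alone, so the strand of KCNQ1 was not set against that of the locus. The locus is therefore not identified as KCNQ1OT1. Whether its reads come from KCNQ1 or from a transcript within it was not tested. CDKN1C had 5.59, 5.52 and 4.40 CPM in atretic libraries, against 4.55, 3.98 and 0.590 CPM in healthy ones. The groups overlapped, and the low healthy value came from replicate 3 (log2 fold change 0.76, SE 0.66, edgeR adjusted p = 0.737). TRPM5 was low, with 0.380, 0.686 and 0.264 CPM in atretic libraries, against 0.311, 0.189 and 0.273 CPM in healthy ones, and also overlapped (0.78, SE 0.59, edgeR adjusted p = 0.699).

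The second smallest p was that of MSTRG.26672 (ENSOARG00020016660) on chromosome 7, 69940966 to 69951572, minus strand. It lies wholly inside FBXO34, an F-box gene on the plus strand, and is thus antisense to it. Of the 15 placed loci with the strongest differences, it was the only one for which RefSeq lists no absent coding gene between the flanks. It had 19.1, 19.2 and 19.1 CPM in atretic libraries, against 9.97, 7.54 and 10.4 CPM in healthy ones. The atretic libraries were nearly equal, and all lay above the healthy ones. The log2 fold change was 1.04 (SE 0.167, 95% interval 0.64 to 1.44, edgeR adjusted p = 0.155). The locus was called without healthy replicate 3 (edgeR adjusted p = 0.00362) and by DESeq2, while its other alternatives reached adjusted p-values up to 0.774. FBXO34 itself had 181, 111 and 186 CPM in atretic libraries, against 94.9, 90.5 and 112 CPM in healthy ones. Its groups overlapped by 1 library (0.69, SE 0.22, edgeR adjusted p = 0.372), and it was called higher without healthy replicate 3 (edgeR adjusted p = 0.0489, the range over its alternatives being 0.0489 to 0.912). The sources do not say if reads were counted by strand, and if they were not, reads of a locus and of a gene opposite to it cannot be told apart.

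**Figure D3:**
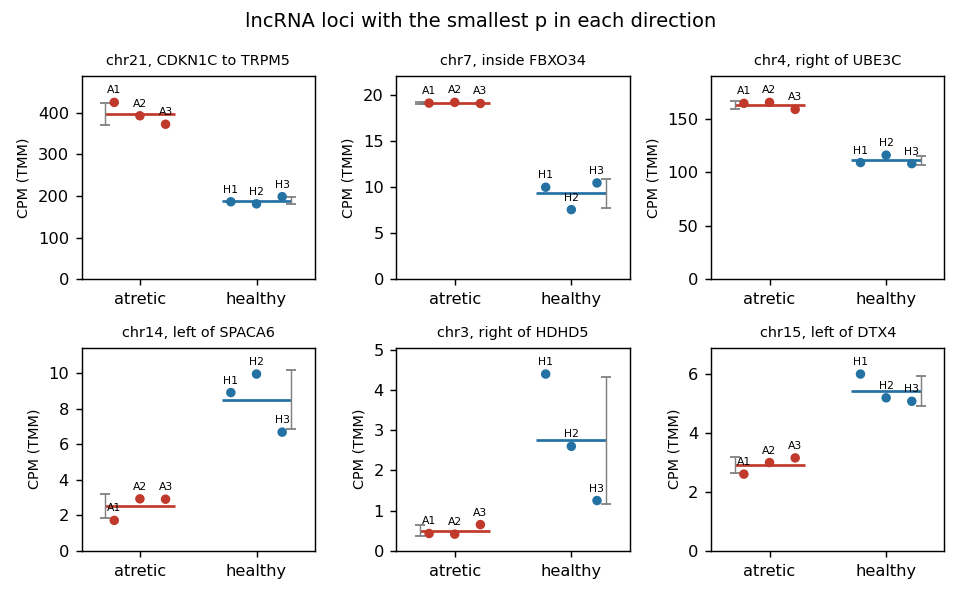
TMM-normalised CPM (y axis) per library in 6 lncRNA loci with the smallest p in each direction, higher in atretic in the top row and lower below. Points are libraries (A1 to A3 atretic, H1 to H3 healthy), lines are group means and brackets the SD (n = 3). The groups do not overlap in any of the 6 panels, and the chromosome 21 locus lies at 372 to 425 CPM in atretic and 181 to 198 CPM in healthy libraries.

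Among the other loci with higher values in atretic libraries, MSTRG.23574 (ENSOARG00020006749; chromosome 4, 128746567 to 128855793, plus strand) had 164, 165 and 159 CPM in atretic libraries, against 109, 116 and 108 CPM in healthy ones. The groups were tight and apart, with a log2 difference of 0.55 (SE 0.101, edgeR adjusted p = 0.185). It lies 41925 bases downstream of UBE3C, a ubiquitin ligase gene on the same strand, whose difference was -0.15 (SE 0.11). RefSeq lists DNAJB6, a heat shock co-chaperone gene, and PTPRN2 between UBE3C and NCAPG2. MSTRG.12213 (ENSOARG00020023941; chromosome 18, 31992912 to 32040894, minus strand) had 129, 113 and 117 CPM, against 78.1, 75.1 and 86.4 CPM in healthy libraries. Its log2 fold change was 0.58 (SE 0.116, edgeR adjusted p = 0.212). CLK3, a splicing factor kinase gene 20007 bases away, had a difference of -0.05 (SE 0.13), and RefSeq lists ARID3B between CLK3 and UBL7.

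MSTRG.21754 (ENSOARG00020010148; chromosome 3, 178446710 to 178772134, plus strand) was lower in level, with 8.23, 8.01 and 7.64 CPM in atretic libraries, against 4.87, 3.98 and 3.12 CPM in healthy ones (0.99, SE 0.216, edgeR adjusted p = 0.232). NEDD1, a gene for a centrosomal protein 39356 bases downstream, differed by 0.02 (SE 0.21). RefSeq lists CFAP54, a gene for a cilium protein, between CDK17 and NEDD1. MSTRG.12057 (ENSOARG00020020744; chromosome 18, 20502862 to 20521931, plus strand) had 87.4, 84.2 and 97.2 CPM in atretic libraries, against 54.3, 51.5 and 26.2 CPM in healthy ones. Healthy replicate 3 was the lowest of the 6, and the difference of 1.03 (SE 0.276, edgeR adjusted p = 0.314) was 0.76 without it. HOMER2, a scaffold protein gene 3972 bases downstream on the other strand, differed by 0.05 (SE 0.18), and RefSeq lists WHAMM, an actin nucleation factor gene, in the interval.

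ENSOARG00020020612 (chromosome 6, 81352309 to 81356127, minus strand) lay far from any protein_coding locus, with IGFBP7 as the nearest at 1678111 bases. It had 3.73, 3.08 and 4.82 CPM in atretic libraries, against 1.60, 1.28 and 1.87 CPM in healthy ones (1.29, SE 0.282, edgeR adjusted p = 0.236). This was the largest difference among the loci with higher values that had at least 50 reads on average and groups that did not overlap. MSTRG.9848 (ENSOARG00020020077; chromosome 15, 35848453 to 35849559) followed with 1.27 (SE 0.423). ENSOARG00020002685 (chromosome 3, 105972998 to 106027677) had 1.19 (SE 0.405) and lies between IL1RL1 and IL1R2, receptor genes of the interleukin-1 family, where RefSeq lists IL1RL2 and IL1R1. IL1R2, a decoy receptor, had 0 reads in the atretic libraries, against 28, 42 and 0 reads in the healthy ones. MSTRG.25609 near SEPTIN11 (0.95, SE 0.362) and MSTRG.4933 near C1QTNF9 (0.84, SE 0.324) completed the 10 largest. For these 4 loci edgeR's adjusted p was 0.384 to 0.424, and none was called by DESeq2 or without healthy replicate 3.

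MSTRG.28183 (ENSOARG00020009892; chromosome 9, 34440542 to 34725874, minus strand) overlaps CEBPD, a transcription factor gene of the C/EBP family on the plus strand. The locus had 122, 144 and 98.8 CPM in atretic libraries, against 79.3, 76.7 and 39.9 CPM in healthy ones (0.90, SE 0.288, edgeR adjusted p = 0.373). CEBPD had 15.4, 13.5 and 35.03 CPM in atretic libraries, against 8.71, 2.34 and 2.03 CPM in healthy ones (2.28, SE 0.68, edgeR adjusted p = 0.355). Both had groups that did not overlap. Neither passed the test with all 6 libraries. The lncRNA locus was called without healthy replicate 3 (edgeR adjusted p = 0.0313, the range over its alternatives being 0.0313 to 0.912) and CEBPD by DESeq2.

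Among loci with lower values in atretic libraries, the smallest p was that of MSTRG.9284 (ENSOARG00020010515 and ENSOARG00020010578; chromosome 14, 61294132 to 61499191, minus strand). It had 1.72, 2.93 and 2.91 CPM in atretic libraries, against 8.90, 9.94 and 6.68 CPM in healthy ones. The level was 3.38-fold lower in atretic libraries (log2 fold change -1.76, SE 0.290, 95% interval -2.45 to -1.06, edgeR adjusted p = 0.165). LOC105601981 lies 3758 bases to its left and SPACA6, a sperm membrane protein gene, 55568 bases to its right. In the interval RefSeq lists SIGLEC5, a sialic acid receptor gene of myeloid cells, and further coding genes. The log2 differences of LOC105601981 (0.12, SE 0.35) and SPACA6 (0.30, SE 0.27) were positive, and their groups overlapped.

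MSTRG.22252 (ENSOARG00020025723; chromosome 3, 229697467 to 229719866, minus strand) had the most negative difference among loci with a mean of at least 50 reads, groups that did not overlap and an unadjusted p under 0.05. It had 0.432, 0.417 and 0.654 CPM in atretic libraries, against 4.40, 2.60 and 1.25 CPM in healthy ones. The healthy libraries differed widely among themselves, yet all lay above the atretic ones. The level was 5.48-fold lower in atretic libraries (-2.45, SE 0.523, 95% interval -3.71 to -1.20, edgeR adjusted p = 0.232), on 33, 34 and 52 reads in atretic libraries. HDHD5, 5939 bases away on the same strand, differed by -0.01 (SE 0.18). RefSeq lists ADA2, a secreted adenosine deaminase gene of monocytes and macrophages, between HDHD5 and ATP6V1E1.

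MSTRG.2509 (ENSOARG00020019791; chromosome 1, 59178590 to 59197181, plus strand) had 0.838, 0.723 and 0.742 CPM in atretic libraries, against 4.59, 5.57 and 1.07 CPM in healthy ones. Healthy replicates 1 and 2 were far above the rest, and replicate 3 lay just above the atretic libraries (-2.28, SE 0.598, edgeR adjusted p = 0.304). IFI44, an interferon-induced gene 15688 bases downstream on the same strand, had 0.445, 0.429 and 0.705 CPM in atretic libraries, against 2.86, 2.74 and 0.489 CPM in healthy ones (-1.95, SE 0.68, edgeR adjusted p = 0.395). The locus and IFI44 thus shared a pattern over the 6 libraries, and both were called lower without healthy replicate 3 (edgeR adjusted p = 0.000533 and 0.00412, with upper ends of 0.912 over the alternatives of each). In the interval RefSeq lists the coding genes PTGFR and IFI44L, of which IFI44L is another interferon-induced gene.

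The same pattern, with healthy replicates 1 and 2 high and replicate 3 close to the atretic libraries, was seen in other loci too. MSTRG.24933 (ENSOARG00020021846; chromosome 6, 1901955 to 2699875) had 1.55, 1.87 and 2.05 CPM in atretic libraries, against 9.61, 10.03 and 2.36 CPM in healthy ones (-2.01, SE 0.539). Its neighbour TMA16, 3504 bases away on the other strand, differed by -0.01 (SE 0.27). MSTRG.2817 (ENSOARG00020012424; chromosome 1, 93663091 to 93748741, minus strand) had 2.90, 4.46 and 3.79 CPM in atretic libraries, against 18.2, 16.8 and 4.74 CPM in healthy ones (-1.84, SE 0.505). It overlaps C1orf162 on the plus strand, which differed by -0.87 (SE 0.61), and RefSeq lists TMIGD3 and ADORA3, an adenosine receptor gene, in the interval. The edgeR adjusted p was 0.312 for MSTRG.24933 and 0.322 for MSTRG.2817 with all libraries. Both were called lower without healthy replicate 3 (edgeR adjusted p = 0.000343 for MSTRG.24933 and 0.000551 for MSTRG.2817, with upper ends of 0.912 over the alternatives of each).

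In other loci with lower values, healthy replicate 3 was not close to the atretic libraries. MSTRG.10365 (ENSOARG00020014954; chromosome 15, 88684209 to 88694723), 30831 bases from DTX4, had 2.607, 3.001 and 3.158 CPM in atretic libraries, against 6.01, 5.20 and 5.08 CPM in healthy ones (-0.89, SE 0.197, edgeR adjusted p = 0.242). DTX4, a regulator of Notch signalling, differed by 0.20 (SE 0.79). Between the flanks of this locus RefSeq lists GLYAT, GLYATL2, FAM111B and further coding genes. MSTRG.27407 (ENSOARG00020004408; chromosome 8, 37131616 to 37151507) had 9.08, 10.5 and 9.05 CPM in atretic libraries, against 16.8, 16.8 and 29.4 CPM in healthy ones (-1.14, SE 0.257, edgeR adjusted p = 0.247). Here healthy replicate 3 was well above its own group, and the difference was -0.81 without it. MSTRG.8845 (ENSOARG00020016885; chromosome 14, 48744242 to 48756079) had 22, 14 and 13 reads in atretic libraries, against 59, 99 and 70 in healthy ones (-2.14, SE 0.488, edgeR adjusted p = 0.247). Its nearest protein_coding locus is ENSOARG00020016938, 9097 bases away. HAMP, the gene of the iron hormone hepcidin, lies 39605 bases away on the other side, and neither gene was tested.

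The remaining 5 of the 10 largest lower differences had log2 fold changes between -1.86 and -1.32 and edgeR adjusted p-values between 0.304 and 0.399. MSTRG.14663 near SESTD1 (-1.62, SE 0.429) and ENSOARG00020002267 near LRRC58 (-1.86, SE 0.601) were the most negative besides MSTRG.7745 (-1.77, SE 0.630). MSTRG.23467 (chromosome 4, 114778861 to 114804437) is typed in the table as a T-cell receptor constant gene beside lncRNA, and it lies 11526 bases from TRBV30, a T-cell receptor beta segment. It had 1.34, 0.968 and 1.27 CPM in atretic libraries, against 3.95, 3.84 and 1.38 CPM in healthy ones (-1.36, SE 0.445), so healthy replicate 3 was again close to the atretic libraries. MSTRG.7745 had 0.930, 0.858 and 0.264 CPM in atretic libraries, against 3.41, 2.58 and 1.04 CPM in healthy ones. Both were called lower without healthy replicate 3 (edgeR adjusted p = 0.00519 for MSTRG.23467 and 0.0315 for MSTRG.7745, with upper ends of 0.912 over the alternatives of each). MSTRG.6562 near PFKFB2 had -1.32 (SE 0.444), while PFKFB2, which controls glycolytic flux, had 0.30 (SE 0.12) with groups that did not overlap.

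Markers of other cell types were also compared, and none of those described next was called with all 6 libraries. All 11 macrophage markers found (of 12) had negative differences. Their median log2 fold change was -1.35, against -0.03 over all loci tested. In 9 all atretic libraries lay below all healthy ones, where 9.21% of all loci did. Without healthy replicate 3, 9 were called lower, against 5.35% of all loci. The macrophage markers summed to 422 to 469 CPM in atretic libraries, against 807, 758 and 582 CPM in healthy replicates 1, 2 and 3. A negative sign alone was not particular to them. All 11 granulosa markers found (median -0.55), all 5 lymphocyte and all 7 oocyte markers tested had it too. Of these, however, all atretic libraries lay below all healthy ones in only 3 granulosa, 0 lymphocyte and 0 oocyte markers. Without healthy replicate 3, 1 granulosa marker was called higher and 1 lower, while 3 lymphocyte and 2 oocyte markers were called lower. Lymphocyte markers (5 found of 7) summed to 2.44 to 4.10 CPM in atretic libraries, against 9.01, 10.3 and 2.25 CPM in the healthy ones. Endothelial markers summed to 17.4 to 18.8 CPM, against 37.4, 45.1 and 22.7 CPM, and CDH5 and EMCN had 0 reads in all libraries but 1 each, where 4 reads were counted. Among the 4 endothelial markers tested, PECAM1 had the most negative difference (log2 fold change -1.81, groups apart). KDR had -0.56, TEK -0.05 and VWF 0.21, all with groups that overlapped. Of the 4, PECAM1 and KDR were called lower without healthy replicate 3. Theca and stroma markers summed to 366 to 419 CPM, against 438, 432 and 915 CPM, and oocyte markers to 3.56 to 3.80 CPM, against 12.5, 10.6 and 1.12 CPM. Of the 10 theca and stroma markers 8 had negative differences, and CYP17A1, at under 1 CPM, had 1.68. INSL3 (566 CPM) and LHCGR (304 CPM) made up most of that sum in healthy replicate 3, where DCN (1.87 CPM) and PDGFRA (2.78 CPM) had their lowest values. The part of these cells in the lncRNA differences was not tested, and in bulk RNA fewer cells of a type and less RNA per cell cannot be told apart.

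**Figure D4:**
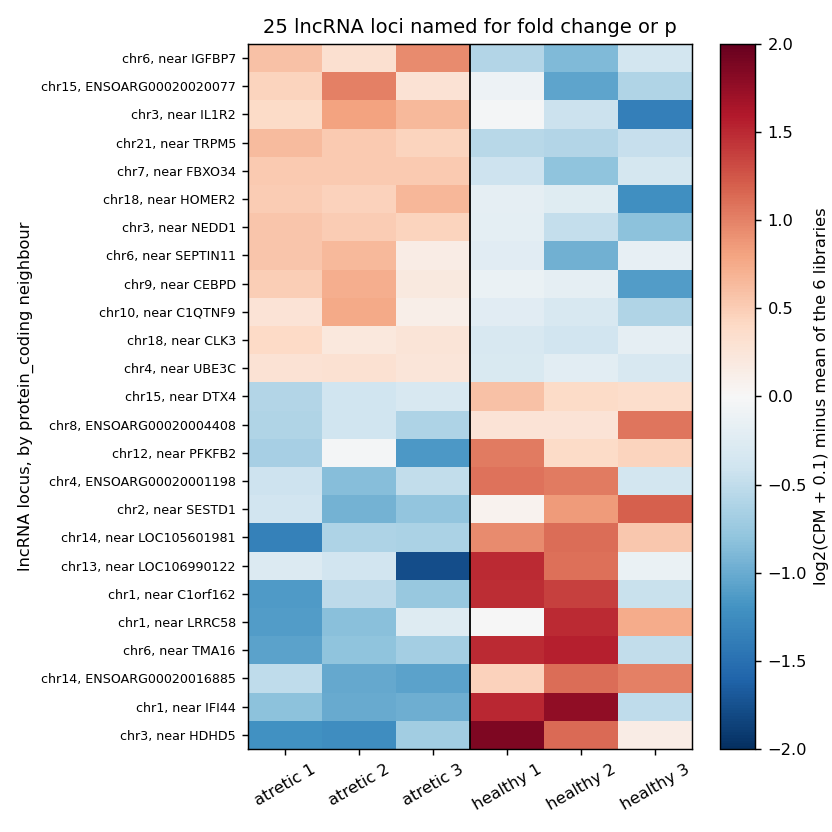
Heat map of the 25 lncRNA loci named for the size or the p of their difference (rows, labelled by chromosome and neighbour), coloured by log2(CPM + 0.1) minus the mean of the 6 libraries in each library (columns, atretic left, healthy right). In several loci with lower values in atretic libraries, such as those near IFI44, TMA16 and C1orf162, healthy replicate 3 is close to the atretic libraries.

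Healthy replicate 3 decided which lncRNA loci were called. Of the 44 loci called lower without it, its own value lay below all atretic libraries in 24, above all of them in 13 and among them in 7. Of the 20 loci called higher without it, its value lay below all atretic libraries in 16, above all of them in 3 and among them in 1. Of the 25 loci with the strongest differences, 17 were called without healthy replicate 3, with an edgeR adjusted p of 0.000243 to 0.0315, and 16 were called by DESeq2. These 25 had been chosen from the same libraries by fold change or p, so such calls are no separate support. Over all loci, 11.8% were called without healthy replicate 3, and DESeq2 called 3.56% of those it gave an adjusted p. Of the 25, the 8 not called without healthy replicate 3 had edgeR adjusted p-values of 0.0622 to 0.207 in that fit. They were MSTRG.8845, MSTRG.14663, MSTRG.6562 and ENSOARG00020002267 among the loci with lower values, and MSTRG.9848, MSTRG.25609, MSTRG.4933 and ENSOARG00020002685 among those with higher values. The loci with the smallest edgeR adjusted p in that fit included MSTRG.10239 on chromosome 15 beside SLC1A2 and MSTRG.21920 on chromosome 3 beside NCF4. With all libraries their groups overlapped, at log2 fold changes of -1.62 and -1.22. MSTRG.24625 (ENSOARG00020015724; chromosome 5), beside SLC36A2, had 9.48 FPKM on average and a difference of -1.14 (SE 0.26) with no overlap between the groups, and RefSeq lists GM2A and SLC36A3 in its interval. These last 3 loci were picked with their values in view.

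The 8 most abundant lncRNA loci per length did not pass the test with all 6 libraries. Their 95% intervals differed in width and were widest for MSTRG.16863, at -1.56 to 0.97, so for some loci they bound the change only loosely. MSTRG.18100 (ENSOARG00020017120; chromosome 23, 45133297 to 45268071, minus strand) averaged 37.7 FPKM. It had 564, 613 and 534 CPM in atretic libraries, against 541, 524 and 758 CPM in healthy ones, so the groups overlapped (log2 fold change -0.09, 95% interval -0.53 to 0.34). It lies 4314 bases from ARHGAP28, which had 819, 717 and 820 reads in atretic libraries, against 997, 936 and 4 reads in healthy ones. MSTRG.2645 (chromosome 1, 74150170 to 74158503) carries the small nucleolar RNA names SNORD21 and SNORA66, and averaged 24.4 FPKM. It had 117, 136 and 124 CPM in atretic libraries, against 129, 129 and 61.1 CPM in healthy ones (0.24, 95% interval -0.45 to 0.93). RefSeq lists RPL5, a ribosomal protein gene that in human hosts small nucleolar RNAs in its introns, between its flanks EVI5 and DIPK1A.

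MSTRG.25435 (chromosome 6, 75436950 to 75441967) averaged 22.1 FPKM and differed by 0.27 (95% interval -0.06 to 0.60), with RASL11B listed by RefSeq between USP46 and SCFD2. MSTRG.618 on the X chromosome averaged 16.0 FPKM (0.13, interval -0.29 to 0.55). MSTRG.13289 on chromosome 19 averaged 14.0 FPKM (-0.01, interval -0.42 to 0.40) with MAP4 in its interval. MSTRG.20924 on chromosome 3 averaged 13.3 FPKM (-0.09, interval -0.34 to 0.17) with ZNF638. MSTRG.6517 on chromosome 12 averaged 11.4 FPKM (-0.16, interval -0.45 to 0.13) with PIK3C2B and with PPP1R15B, a regulator of eIF2 alpha dephosphorylation. For all 5 of the 8 loci that could be placed, RefSeq lists such a coding gene between the flanks.

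MSTRG.16863 (ENSOARG00020013274; chromosome 21, 27395599 to 27425598) averaged 17.95 FPKM and was the only one of the 8 that was called in any alternative. It had 72.2, 75.4 and 72.0 CPM in atretic libraries, against 117, 127 and 25.8 CPM in healthy ones (-0.30, 95% interval -1.56 to 0.97). Without healthy replicate 3 it was called lower in atretic libraries (edgeR adjusted p = 0.00138, the range over its alternatives being 0.00138 to 0.995). The locus with the most reads, MSTRG.21570 on chromosome 3, 192361 bases from CAND1, had 79092, 70188 and 77193 reads in atretic libraries, against 76776, 81372 and 12210 in healthy ones (0.57, edgeR adjusted p = 0.770).

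Loci that carry a small RNA name are of interest in the follicle because MIR224 is a known regulator of granulosa cells in mouse. MSTRG.1433 on the X chromosome carries the name MIR224 beside 2 Ensembl identifiers. It had 881, 1132 and 1163 reads in atretic libraries, against 925, 868 and 263 reads in healthy ones. Its difference was 0.76 (SE 0.374, edgeR adjusted p = 0.540), and the normalised groups did not overlap. The reads are those of the locus and not of the mature microRNA. MSTRG.13177 on chromosome 19, which carries SNORD19, SNORD19B and SNORD19C, overlapped between the groups (0.16, SE 0.243).

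In 7 loci the name also holds a protein-coding symbol, and in 4 of them the coding locus lies on the other strand. MSTRG.24974, which carries PDE5A, the cGMP-specific phosphodiesterase, had 15109, 13891 and 16861 reads in atretic libraries, against 12529, 12555 and 8970 in healthy ones. Its difference was 0.51 (SE 0.125, edgeR adjusted p = 0.276), while the PDE5A locus on the opposite strand had -0.12. MSTRG.10751, which carries GOLPH3, a Golgi protein, had 57075, 55600 and 52129 reads in atretic libraries, against 41549, 31876 and 37200 in healthy ones (0.63, SE 0.180, edgeR adjusted p = 0.338), and the opposite GOLPH3 locus had -0.27. MSTRG.2397, which carries CACHD1, had 0.47 (SE 0.193) with groups that overlapped, against -0.34 for the opposite CACHD1 locus. MSTRG.20300, which carries PUM2, had 0.24, and the opposite PUM2 locus 0.04. These 4 loci, like the small RNA hosts, were chosen after their values were seen.

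Each lncRNA locus was set beside its nearest protein_coding locus, and 720 distinct neighbours were found. The neighbour overlapped in 81 loci, on the opposite strand in 61 of them. It lay within 5 kb in 126 loci, at 5 to 50 kb in 267 and farther in 309. By position, the median level was 1.66 FPKM where the neighbour overlapped on the opposite strand, 1.60 FPKM within 5 kb and 0.124 FPKM beyond 50 kb. In 31 loci the neighbour started within 5 kb in the other direction, head to head, and their median was 2.23 FPKM.

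Of 641 pairs with a tested neighbour, the 2 log2 fold changes had the same sign in 332 (51.8%), with a Spearman correlation of 0.07 across pairs. In overlapping pairs on opposite strands the correlation was 0.29 (n = 60), in head-to-head pairs 0.37 (n = 29), with the same sign in 21 pairs (72.4%), and beyond 50 kb it was 0.01 (n = 244). These values describe pairs that share libraries and, where they overlap, possibly reads, so no p is given. Both members had groups that did not overlap in the same direction in 13 pairs and in opposite directions in 10. Of the 64 loci called without healthy replicate 3, 49 had a tested neighbour. In 8 of these the neighbour was called in the same direction in that fit, and in none in the opposite direction. Of all 12952 protein_coding loci tested, 501 were called higher and 962 lower in that fit, 11.3% in either direction. That last share counts both directions, so it is no like measure for pairs called in the same direction. The pairs are few, and whether neighbours change together was not tested.

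**Figure D5:**
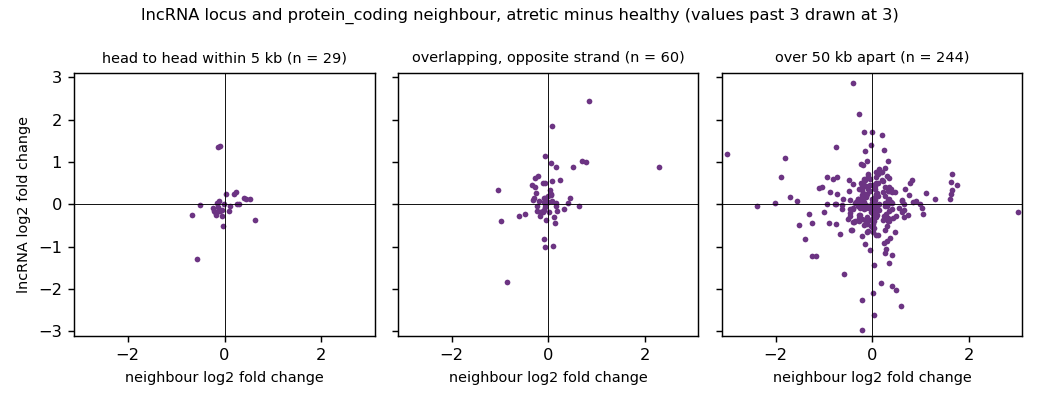
Log2 fold change of the lncRNA locus (y axis) against that of its nearest protein_coding locus (x axis), atretic minus healthy, for pairs with a tested neighbour, in 3 panels by position, with values past 3 drawn at 3. The Spearman correlation was 0.37 in head-to-head pairs (n = 29), 0.29 in overlapping pairs on opposite strands (n = 60) and 0.01 in pairs over 50 kb apart (n = 244).

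The 145 placed loci with no absent coding gene between their flanks are those for which the lncRNA type had no such conflict. Their median level was 0.122 FPKM, and 12 of them reached 1 FPKM. An unadjusted p under 0.05 was reached by 3 of them (2.07%), the locus inside FBXO34, MSTRG.2397 in CACHD1 and MSTRG.21592 beside HMGA2. The last had 2.17, 2.09 and 1.93 CPM in atretic libraries, against 3.21, 2.58 and 5.34 CPM in healthy ones (-0.84, SE 0.321, edgeR adjusted p = 0.418). Of the 321 loci with an absent coding gene, 25 reached that p (7.79%). Without healthy replicate 3, edgeR called 2 higher and 1 lower among the 145 (2.07%), against 10 higher and 22 lower among the 321 (9.97%), where 6.5% of all loci were called higher and 5.35% lower. MSTRG.2397 was among the 2 called higher (edgeR adjusted p = 0.00395). The sets differed in depth, with a median mean count of 34 reads in the 145 loci against 413 reads in the 321, and the part of depth in these shares was not tested.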

How the data were processed

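The authors deposited 1 table with raw read counts and FPKM values per locus for all 6 libraries, with a type, position and strand for each locus, per the file headers. Counts are whole numbers and the deposited FPKM values are scaled by locus length and library size. The submitters' processing notes name StringTie 2.1.6, SAMtools, HISAT2 2.0.4, FastQC 0.11.9 and cutadapt 1.9, in no order. Genome build, annotation and strandedness of counting were not given in the sources used here, so reads of overlapping loci can have been split or shared.

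Loci with a gene name or an annotated type and a mean count of at least 10 were tested, 21372 in all. Unnamed loci, 11.4 to 11.5% of counts in atretic and 8.88 to 9.77% in healthy libraries, were left out of library sizes. The test was edgeR 4.0.16's quasi-likelihood F test with TMM normalization, group alone, two-sided, with Benjamini-Hochberg adjustment at 0.05, in R 4.3.3. Log2 fold changes are atretic minus healthy, SE comes from the F statistic, and 95% intervals use its degrees of freedom. CPM values are TMM-normalised over named loci, except the limits for a count of 0. DESeq2 1.42.0 was an alternative, beside other scalings, filters, locus sets, a robust dispersion, a replicate block and each library left out. Tables and figures used Python 3.11.15, pandas 2.3.3 and matplotlib 3.10.9. The scripts were tested on simulated data.

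The neighbour of a locus is the nearest protein_coding locus on its chromosome. A coding gene counts as absent where RefSeq lists it between both flanks and no locus carries its symbol. Loci named in the text were those with an adjusted p under 0.05, the 10 largest differences in each direction (mean count of at least 50, groups apart, unadjusted p under 0.05), the 5 smallest p in each direction, the 8 highest mean FPKM and known lncRNA symbols. The members and lists were chosen with earlier results of these data known. The labels give replicate numbers in both groups. Same-numbered libraries did not deviate together (correlations across loci -0.02, 0.06 and 0.01), so no pairing was assumed. P-values set the difference between the groups against the spread between these libraries.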

Additional observations from a re-analysis of the deposited data

How the results depend on the processing

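With all 6 libraries edgeR called 0 lncRNA loci in each direction, also with relative log expression size factors, total counts alone, no low-count filter, a mean of at least 1 FPKM, unnamed loci included, protein_coding and lncRNA loci alone, robust dispersion, a mean of at least 50 reads, type lncRNA alone, and only loci with no absent coding gene (this last chosen after seeing the data). DESeq2 called 11 higher and 11 lower. Leaving out 1 library gave 0 to 20 higher and 0 to 44 lower, all of them without healthy replicate 3. Of all loci, 2 were called higher and 0 lower. Over the same leave-outs this became 0 to 1389 higher and 0 to 1143 lower. DESeq2 gave 388 and 279, a mean of at least 1 FPKM 7 and 3, unnamed loci included 20 and 1, total counts alone 1 higher, and protein_coding and lncRNA loci alone 3 lower. The replicate block left 0 lncRNA loci and 0 of all loci called, and the cause of these changes was not tested. The biological coefficient of variation was 0.434 with all libraries and 0.287 without healthy replicate 3. The median mean count was 61.5 reads in lncRNA loci against 669 over all loci tested, so counting error was larger for lncRNA loci.

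The sign of the log2 difference turned for abundant loci and neighbours close to 0. Leaving out 1 library at a time, the range was -0.038 to 0.411 for MSTRG.2645, -0.013 to 0.230 for MSTRG.618, -0.737 to 0.040 for MSTRG.16863, -0.189 to 0.097 for MSTRG.18100 and -0.169 to 0.098 for MSTRG.13289. For neighbours it was -0.327 to 0.638 for DTX4, -0.077 to 0.146 for HOMER2, -0.123 to 0.014 for CLK3, -0.062 to 0.421 for SESTD1, -0.151 to 0.148 for NEDD1, -0.168 to 0.076 for HDHD5 and -0.160 to 0.224 for TMA16. It was -0.0071 to 0.497 for ENSOARG00020004386, -0.147 to 0.486 for LOC105601981 and -0.853 to 0.298 for ENSOARG00020020082. With protein_coding and lncRNA loci alone the values were 0.030 for MSTRG.13289, 0.020 for HDHD5 and 0.028 for TMA16. With the replicate block they were 0.0086 for MSTRG.13289 and 0.0072 for TMA16, and with total counts alone -0.016 for NEDD1. No lncRNA locus among the 25 strongest changed sign under any alternative run. Each of these 25 had every atretic library on one side of every healthy library. Leaving out 1 library could therefore hardly turn their sign, so their stable sign in those fits is no separate support.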

Other observations

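Genes whose products act on or with lncRNAs were set beside the loci, and edgeR called none of them with all 6 libraries. Groups that did not overlap were seen in 1 of 7 polycomb members, 2 of 11 speckle and paraspeckle proteins, 0 of 5 XIST partners, 1 of 9 genes of nuclear RNA decay and 1 of 6 genes of nonsense-mediated decay. Over all loci tested, 10.1% had higher and 9.21% lower values without overlap, so the members named below do not set these lists apart. Of the 7 members of polycomb repressive complex 2, the histone methyltransferase that several lncRNAs bind, 4 had positive and 3 had negative differences, and the median log2 fold change was 0.03 against -0.03 over all loci tested. RBBP7, a histone-binding subunit, had lower values in all atretic than in all healthy libraries (-0.27) and was the only member of the 5 lists called without healthy replicate 3, a fit in which 11.8% of all loci were called. Of 11 speckle and paraspeckle proteins, 10 had positive differences with a median of 0.06. SFPQ, which forms paraspeckles with NEAT1, had 813 CPM on average in atretic and 672 CPM in healthy libraries, and SRSF2, a splicing factor of nuclear speckles, had 269 and 211 CPM, both with groups that did not overlap. The 9 genes of nuclear RNA decay had a median of 0.03, with XRN2 higher in all atretic libraries (0.19). The 5 partners of XIST that were found had a median of -0.07, and the 6 genes of nonsense-mediated decay, which degrades many small nucleolar RNA host transcripts, -0.10, with SMG1 lower in all atretic libraries (-0.14).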
